A study of Mus musculus with 47 samples.

Results

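Lactose is the main sugar of milk, and 7 genes of its synthesis and of the glucose supply for it were followed through the mouse mammary cycle: *Lalba*, *B4galt1*, *Slc2a1*, *Hk1*, *Hk2*, *Ugp2* and *Slc35a2*. They were taken as the rows of the expression table whose Ensembl gene identifier carries one of these symbols, which gave 7 of 7 members among the 17078 genes of the table. Lactose is made in the Golgi of the luminal secretory cell by lactose synthase, a complex of the galactosyltransferase encoded by *B4galt1* with α-lactalbumin, the milk protein encoded by *Lalba*, which turns the enzyme towards glucose as its acceptor. Glucose enters the cell through transporters such as GLUT1 (*Slc2a1*), is phosphorylated by hexokinases (*Hk1*, *Hk2*) and is converted to UDP-glucose by the enzyme encoded by *Ugp2*. After its conversion to UDP-galactose the sugar donor is carried into the Golgi by the transporter encoded by *Slc35a2*. The pathway is known as a hallmark of the lactating luminal cell, and basal (myoepithelial) cells contract to eject milk but do not secrete it.

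The study asked how luminal and basal mammary epithelial cells of FVB/N mice change through postnatal development. Cells were separated by flow sorting into luminal (Lin- CD24+ CD29lo) and basal (Lin- CD24+ CD29hi) populations, each sort holding cells pooled from several mice, and their amplified RNA was sequenced. There were 8 time points, named W10, P3.5, P14.5, L3, L10, Id2, Iw4 and M4. W10 and M4 were never-pregnant mice aged 10 weeks and 4 months. P3.5 and P14.5 were days 3.5 and 14.5 of pregnancy, L3 and L10 were days 3 and 10 of lactation, and Id2 and Iw4 followed weaning by 2 days and by 4 weeks. The labels name no transgene, allele or drug in any group. There were 24 luminal and 22 basal libraries, 3 for each cell type and time point except basal P14.5 and basal L10 with 2 each. Between 4398806 and 20023054 reads fell on genes per library (median 8518616), so that 3 reads correspond to 0.17 to 1.05 CPM. CPM, the unit of the levels below, are read counts scaled to a common library size, and levels are given in CPM per kilobase of exon (CPM/kb) where genes are compared with each other.

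The sorted populations were checked against their markers before the members were read. The summed level of 10 luminal markers was 4497 to 9756 CPM in the luminal and 281 to 2517 CPM in the basal libraries. The summed level of 12 basal markers was 715 to 3484 CPM in the luminal libraries, and 14138 to 81548 CPM in the basal libraries other than those of Id2. The 3 basal Id2 libraries had basal marker sums of 2762, 19243 and 1826 CPM for replicates 2, 4 and 6. Replicates 2 and 6 stood apart, with the integrin gene *Itgb1*, not a contractile or keratin gene, as the most abundant marker. Replicate 4 lay within the range of the other basal libraries. The summed fibroblast markers of the 3 Id2 libraries were 3037, 10178 and 71849 CPM, against 321 CPM on average in basal W10 (345, 237 and 381 CPM). Fibroblast markers were also high in both basal P14.5 libraries (11820 and 5979 CPM for replicates 3 and 5) and in L3 replicate 6 (5702 CPM), all above Id2 replicate 2. At Id2 *Col1a1* was the most abundant of these in each library, at 27787 CPM in replicate 6, and in replicate 2 the endothelial markers summed to 16503 CPM, led by *Vwf* (7390 CPM). No basal, fibroblast, endothelial or pericyte marker was at 0 in these 3 libraries. Basal results at Id2 and P14.5 are therefore given with these values in view, and the part of other cell types in them was not tested. In bulk RNA, fewer cells of a type and less RNA per cell cannot be told apart.

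**Figure D1:**
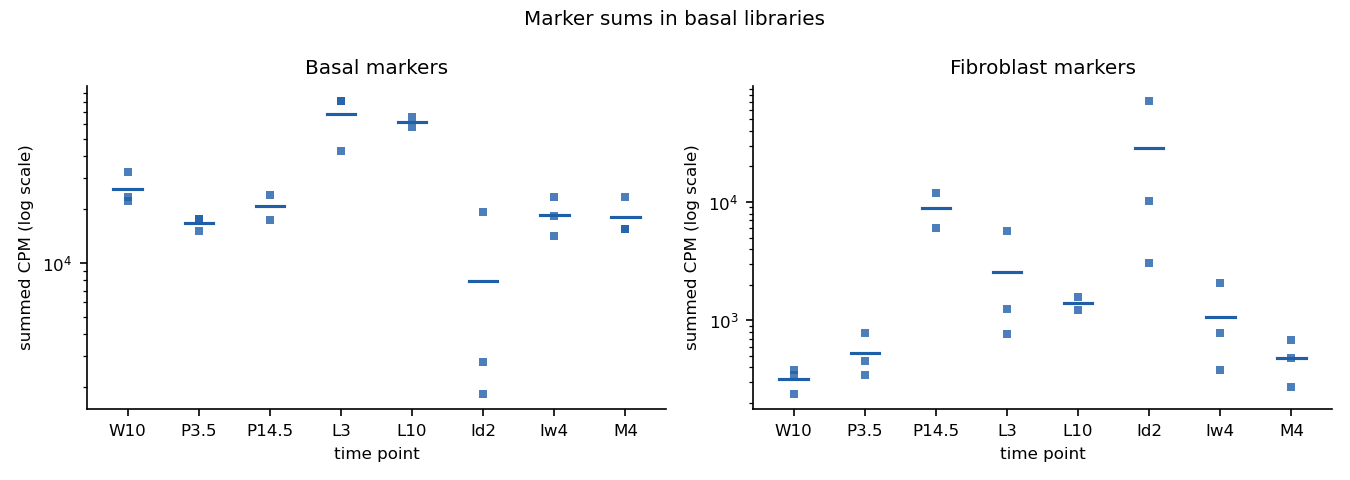
Summed CPM (log scale) of 12 basal markers (left) and 7 fibroblast markers (right) in the basal libraries at the 8 time points; each square is 1 library and each bar the group mean. Replicates 2 and 6 of basal Id2 (2762 and 1826 CPM) lie below all other basal libraries for the basal markers, and the fibroblast markers reached 71849 CPM at Id2 and 11820 CPM at P14.5.

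The 120 bases before the annotated start of 4 members are shown because these members followed different courses in the data below. The sequences are those of RefSeq on GRCm38.p6, a later build than that of the expression table, and they are written 5′ to 3′ on the strand of the gene. Capitals mark a match to TTCNNNGAA, the letters of the STAT5 site known from milk protein genes, or to ACGTG, the core of the hypoxia response element, searched on both strands; ACGTG also lies within the E-box CACGTG. *Lalba* lies at chr15:98482684-98482803 (minus strand), *B4galt1* at chr4:40853985-40854104 (minus strand), *Slc2a1* at chr4:119108625-119108744 (plus strand) and *Hk2* at chr6:82774455-82774574 (minus strand).
Lalba: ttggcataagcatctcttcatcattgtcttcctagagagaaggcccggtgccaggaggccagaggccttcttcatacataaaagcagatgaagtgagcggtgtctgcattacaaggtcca
B4galt1: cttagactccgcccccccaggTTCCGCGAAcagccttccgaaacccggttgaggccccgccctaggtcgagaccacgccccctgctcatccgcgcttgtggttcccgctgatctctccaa
Slc2a1: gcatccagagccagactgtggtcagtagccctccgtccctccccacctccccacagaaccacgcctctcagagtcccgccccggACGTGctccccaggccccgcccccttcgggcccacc
Hk2: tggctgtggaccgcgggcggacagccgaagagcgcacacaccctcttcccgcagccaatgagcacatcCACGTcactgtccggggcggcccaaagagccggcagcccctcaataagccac
TTCNNNGAA was found once in these windows, 99 bases before the start of *B4galt1*, and 3.15% of 32851 promoter windows of this length in the table held it. ACGTG was found 36 bases before the start of *Slc2a1* and, on the other strand, 52 bases before that of *Hk2*, and 9.41% of all windows held it. No letters of either kind were in the *Lalba* window. CACGTG was in none of the 4 windows, and was in 3.66% of all windows. These matches describe letters, not binding.

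*Lalba*, one of the 2 subunits of lactose synthase, had the widest range of the members. In luminal cells its 3 libraries were at 169, 34.9 and 68.6 CPM at W10, 1.46, 19.7 and 5.34 CPM at P3.5 and 17.2, 13.5 and 9.45 CPM at P14.5. At L3 they were at 479, 319 and 260 CPM and at L10 at 50.6, 179 and 209 CPM. All 6 lactating libraries lay above all 6 pregnant ones. The share of all genes with such an order between time points is not given, here or for the members below. The highest luminal mean was not that of lactation but that of Id2, 2 days after weaning, where the libraries were at 1910, 1250 and 365 CPM, the last of them within the range of L3. At Iw4 they were 284, 200 and 77.3 CPM, and in the 4-month-old mice 44.5, 102 and 341 CPM. The never-pregnant luminal libraries thus overlapped those of L10 and, at M4, also those of L3. The highest mean, 1175 ± 775 CPM (SD, n = 3) at Id2, was 133 times the lowest, 8.84 ± 9.62 CPM (SD, n = 3) at P3.5. By order of the luminal means the time points ran Id2, L3, Iw4, M4, L10, W10, P14.5 and P3.5, and only W10 and P14.5 were neighbours in that order whose libraries did not overlap (adjusted p = 0.050).

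Basal cells held little *Lalba*. Its basal libraries were at 4.51, 5.23 and 1.02 CPM at W10, 0.113, 0.298 and 0.217 CPM at P3.5 (1 basal library of all had under 3 reads), 0.62 and 2.96 CPM at P14.5, and 18, 11.8 and 14.2 CPM at L3. At L10 they were 5.68 and 1.99 CPM, at Id2 166, 135 and 21.3 CPM, at Iw4 31.4, 18.8 and 2.13 CPM and at M4 4.78, 6.98 and 36.3 CPM. As in luminal cells P3.5 was lowest and Id2 highest, but the basal mean of L3 was below those of Iw4 and M4, where the luminal one was above them. At every time point all luminal libraries lay above all basal ones. From W10 to M4 in the order above, 18.4, 18.2, 25.7, 17.1, 23.5, 17.6, 17 and 17.2% of all genes had all luminal libraries above all basal ones. Within the 22 sorts that gave both libraries, the basal level of *Lalba* was 0.953 to 31.4% of the luminal level of the same sort (median 5.65%). The summed milk protein genes stood at 1.69 to 31.8% (median 6.67%) and the luminal keratin genes *Krt18* and *Krt8* at 3.66 to 24.4% (median 8.89%) and 6.58 to 60.9% (median 19.4%). Whether basal *Lalba* came from basal cells or from luminal RNA in the basal sorts was not tested.

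**Figure D2:**
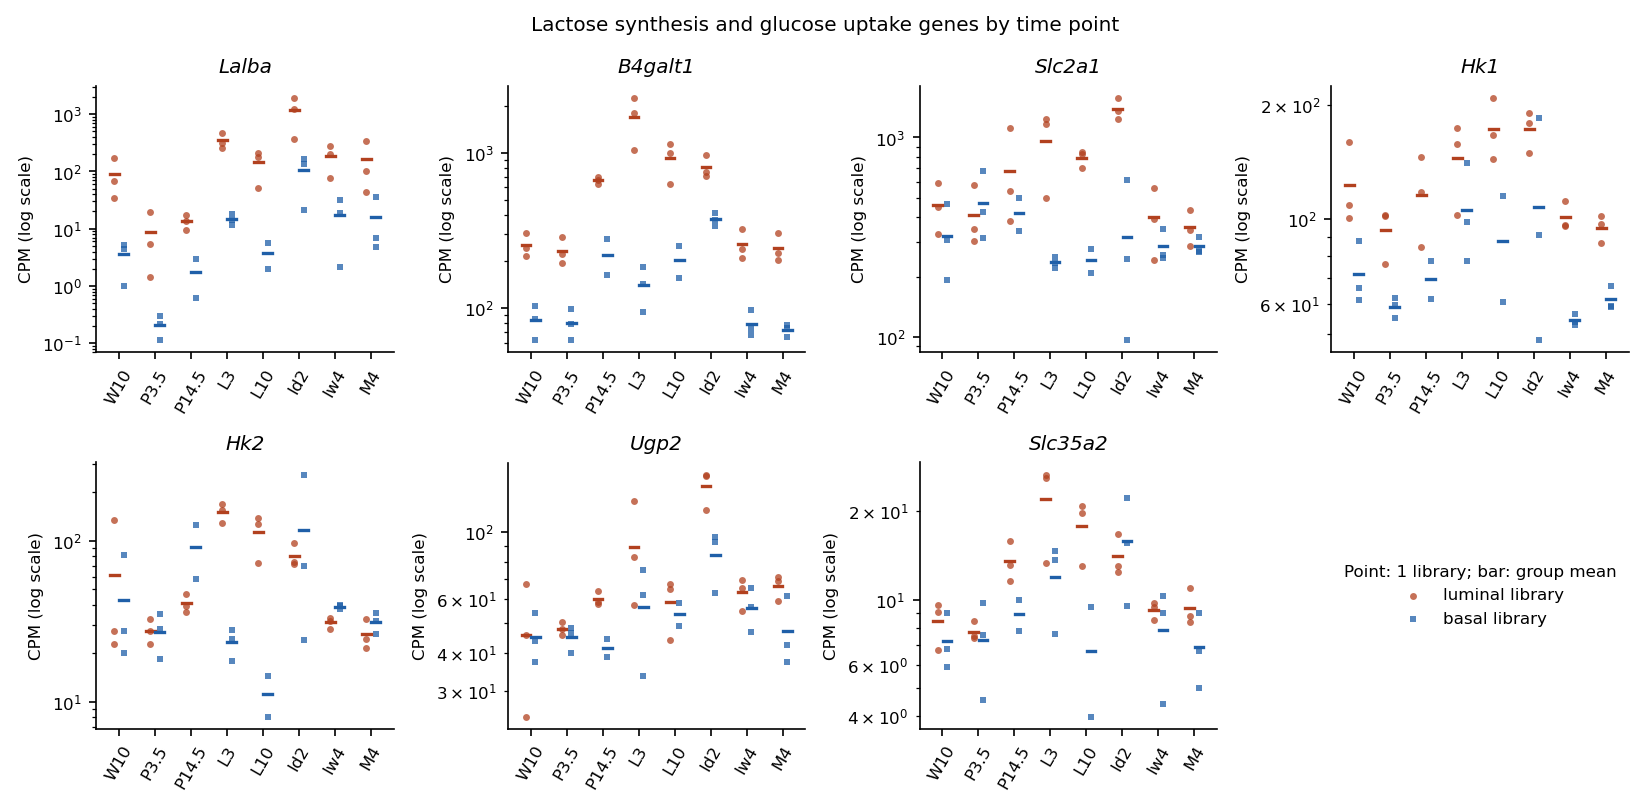
Level (CPM, log scale, a separate axis for each gene) of the 7 members at the 8 time points; circles are luminal libraries, squares basal libraries and bars group means. The luminal mean is highest at Id2 for *Lalba* (1175 CPM) and at L3 for *B4galt1* (1693 CPM), and in both cases the libraries overlap those of the next highest mean. Luminal and basal *Hk2* part at L3 and L10.

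*B4galt1*, the catalytic subunit, followed another course. Its luminal libraries were at 218, 305 and 243 CPM at W10, 194, 287 and 222 CPM at P3.5, and 672, 700 and 629 CPM at P14.5. At L3 they reached 2249, 1037 and 1791 CPM, at L10 631, 993 and 1141 CPM and at Id2 963, 749 and 706 CPM. The rise was thus in place by P14.5, when *Lalba* was still near its lowest, and the highest mean was that of L3. At Iw4 (322, 241 and 211 CPM) and M4 (225, 203 and 306 CPM) the libraries overlapped those of W10. In basal cells *B4galt1* was at 62.2 to 104 CPM in the 12 libraries of W10, P3.5, Iw4 and M4. The other basal libraries were at 163 and 278 CPM (P14.5), 143, 93.9 and 184 CPM (L3), 251 and 157 CPM (L10) and 412, 337 and 370 CPM (Id2). All luminal libraries lay above all basal ones at each of the 8 time points. Per length, luminal *B4galt1* was at 400 CPM/kb and *Lalba* at 457 CPM/kb at L3, and at 190 and 1524 CPM/kb at Id2.

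*Slc2a1*, the gene of the facilitative transporter GLUT1, was at 330, 589 and 451 CPM in luminal cells at W10 and at 347, 577 and 302 CPM at P3.5. At P14.5 the luminal libraries spread over 1109, 383 and 541 CPM and at L3 over 1231, 1164 and 498 CPM, while L10 gave 705, 842 and 824 CPM. The highest were again those of Id2, at 1574, 1360 and 1233 CPM, above every other luminal library. At Iw4 (560, 390 and 244 CPM) and M4 (434, 285 and 344 CPM) the level overlapped that of W10. Basal *Slc2a1* lay between 96.6 and 680 CPM over all 22 libraries, its lowest and 1 of its highest values (613 CPM) both at Id2, and its change over the time points did not pass the test (F test, adjusted p = 0.41). The luminal and basal libraries overlapped at W10, P3.5, P14.5, Iw4 and M4, and all luminal libraries were higher at L3, L10 and Id2.

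The 2 hexokinases, which trap glucose in the cell as its phosphate, differed. *Hk1*, the widely expressed form, ranged from 76.2 to 209 CPM over the luminal and from 48 to 185 CPM over the basal libraries, and its change over time did not pass in luminal (adjusted p = 0.034) or basal cells (0.066). *Hk2*, the inducible form, was in luminal cells at 27.5, 22.8 and 32.8 CPM at P3.5, 36.2, 47 and 39.2 CPM at P14.5, 130, 170 and 155 CPM at L3 and 73.2, 127 and 139 CPM at L10. It was at 96.6, 71.9 and 73.4 CPM at Id2, 31.7, 28.5 and 33.1 CPM at Iw4 and 24.7, 21.5 and 32.7 CPM at M4. All lactating luminal libraries lay above those of pregnancy, Iw4 and M4. At W10, replicate 3 (134 CPM) lay far above replicates 5 and 6 (27.7 and 22.8 CPM), and the basal library of the same sort was also high (81.8 CPM against 27.6 and 20 CPM).

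In basal cells *Hk2* took another course. The basal libraries were at 125 and 57.8 CPM at P14.5, 28, 24.7 and 17.8 CPM at L3 and 14.4 and 8.07 CPM at L10, and then spread over 24.2, 70 and 258 CPM at Id2. They were at 18.5, 34.9 and 28.4 CPM at P3.5, 37.6, 39.8 and 39.1 CPM at Iw4 and 31.7, 26.2 and 35.7 CPM at M4. The 258 CPM belonged to Id2 replicate 6, the library with 71849 CPM of fibroblast markers. Basal *Hk2* was thus lowest at L10, and luminal *Hk2* was highest at L3. Taken per length, *Hk2* made up 60.1 ± 7.22% of the 2 hexokinases in luminal cells at L3, and 24.6 ± 4.45% of them in basal cells (SD, n = 3 each). At L10 the shares were 47.8 ± 12.6% (SD, n = 3) and 15.6 ± 0.567% (SD, n = 2). The order was the opposite at P14.5, with 34.2 ± 9.17% in luminal (SD, n = 3) and 63.5 ± 8.77% in basal cells (SD, n = 2). It was so too at Iw4 (30.5 ± 2.22 and 50.6 ± 1.56%) and M4 (28.1 ± 3.81 and 41.9 ± 2.7%, SD, n = 3 each), and the shares did not overlap at any of these 5 time points. In level, all basal *Hk2* libraries lay above the luminal ones at P14.5, with 2 basal against 3 luminal libraries, and at Iw4. Neither difference in level was called (at P14.5 1.05, limma, adjusted p = 0.21). The share of all genes with this order is not given here.

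*Ugp2*, which makes UDP-glucose, was between 24.6 and 69.5 CPM in the luminal libraries of W10, P3.5, P14.5, L10 and Iw4, at 69.2, 59.5 and 71.3 CPM at M4 and at 82.8, 57.4 and 127 CPM at L3. At Id2 it was at 118, 153 and 155 CPM. Only 1 luminal library of another time point, L3 replicate 6, lay within the range of Id2. Basal *Ugp2* was between 33.5 and 96.5 CPM, with 62.8, 93.1 and 96.5 CPM at Id2. *Slc35a2*, the Golgi transporter of UDP-galactose, had the lowest luminal level of the members per length, with means of 1.64 to 4.65 CPM/kb. Its luminal libraries were at 9.57, 6.73 and 9.09 CPM at W10, 11.6, 13.1 and 15.9 CPM at P14.5, 13.3, 26 and 26.7 CPM at L3, 13, 20.8 and 19.8 CPM at L10 and 8.79, 8.39 and 11 CPM at M4. The lactating libraries lay above those of both never-pregnant groups, and its basal libraries stayed between 3.99 and 22.3 CPM.

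Over the 8 time points 6 of 7 members changed in luminal cells, all but *Hk1*, where 34% of all genes did, and 3 of 7 changed in basal cells (*Lalba*, *B4galt1* and *Hk2*), where 44.5% of all genes did (limma F test, adjusted p under 0.01). Across the 8 luminal means on the log2 scale, *B4galt1* ran with *Slc35a2* (Pearson r = 0.98) and *Hk2* (0.92) and less with *Lalba* (0.45). These are descriptions over 8 points that share their libraries. When the time points were put in the order of each member's means, neighbours were mostly not told apart. The luminal exception was *B4galt1*, higher at P14.5 than at Iw4 (adjusted p = 0.0021), and among basal neighbours the closest to the threshold was *Lalba* at Id2 over Iw4 (adjusted p = 0.015).

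The first comparison set lactation (L3 and L10) against the never-pregnant state (W10 and M4) in each cell type, on log2(CPM + 1), with limma fitted across all genes and a change was called from 2-fold upwards with an adjusted p under 0.01. In luminal cells 4 of 7 members rose and none fell, where 7.37% of all genes were called higher and 5.83% lower. *B4galt1* rose by 2.28 (SE 0.20, adjusted p = 8.8e-11), *Hk2* by 1.89 (SE 0.37, adjusted p = 0.00013), *Slc2a1* by 1.09 (SE 0.30, adjusted p = 0.0054) and *Slc35a2* by 1.04 (SE 0.23, adjusted p = 0.00069). *Lalba* did not pass, at 1.14 (SE 0.60, adjusted p = 0.15, 95% interval -0.07 to 2.36), and neither did *Hk1* (0.54, adjusted p = 0.045) or *Ugp2* (0.39, adjusted p = 0.13). All 7 of the other milk protein genes measured, which include the caseins, *Wap* and *Glycam1*, rose in the same comparison, with a median of 4.88 against -0.01 over all genes. The calls of *B4galt1* and *Hk2* held under every setting tried and without any single library. Milk protein genes took up 18.9 to 65.6% of the reads of the lactating luminal libraries and 1 to 10.3% of the never-pregnant ones. Leaving them out of the library totals shifted the median of all genes to -0.25, *Slc2a1* to 0.72 (adjusted p = 0.044) and *Slc35a2* to 0.70 (adjusted p = 0.022), neither of which passed. That setting also used plain read totals in place of the deposited scaling, and the part of each in the shift was not tested. Markers of other cells also rose in luminal lactation, with 7 of 12 basal, 5 of 6 endothelial, 3 of 5 pericyte and 2 of 7 immune markers called higher. With milk protein genes left out of the totals, 2 endothelial and 6 basal markers were. The basal markers summed to 1033 to 3484 CPM in the lactating and 781 to 1000 CPM in the never-pregnant luminal libraries, led by *Itga6* or *Krt5*, and their part in the member values was not tested.

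The calls of *Slc2a1* and *Slc35a2* also rested on single luminal libraries. That of *Slc2a1* was lost without replicate 3 (0.98, adjusted p = 0.018) or 6 (1.10, 0.011) of W10, 4 (0.97, 0.020) or 5 (0.99, 0.017) of L3, 5 (1.07, 0.012) or 6 (1.07, 0.012) of L10, or 2 (1.02, 0.016) or 6 (1.08, 0.011) of M4. That of *Slc35a2* was lost without replicate 5 of W10 (0.97, adjusted p = 0.0032), 5 (0.97, 0.0028) or 6 (0.96, 0.0030) of L3, or 5 (0.98, 0.0027) or 6 (1.00, 0.0025) of L10, where it came to just under 2-fold. W10, M4 and the 2 lactation times were amplified in different batches, so that batch and state cannot be told apart in this comparison.

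**Figure D3:**
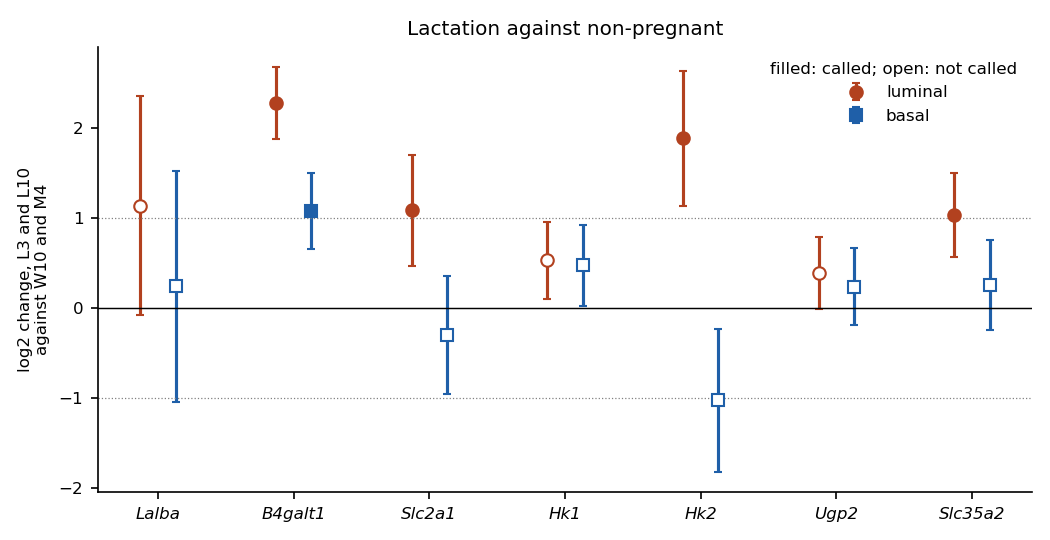
Log2 change of each member from the never-pregnant (W10 and M4) to the lactating state (L3 and L10) in luminal (circles) and basal cells (squares), with 95% intervals; filled symbols passed the test and dotted lines mark 2-fold. *Hk2* lies at 1.89 in luminal and -1.02 in basal cells, and *B4galt1* passed in both.

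In basal cells 1 of 7 members rose, *B4galt1*, by 1.08 (SE 0.21, adjusted p = 8.8e-05), where 9.58% of all genes were called higher and 6.97% lower. *Hk2* was at -1.02 (SE 0.39, adjusted p = 0.040), *Slc2a1* at -0.30, *Lalba* at 0.25 (adjusted p = 0.80) and the other 3 members between 0.24 and 0.49, and none of these passed. The *B4galt1* call was lost without replicate 6 of W10 (0.98), 6 of L3 (0.97) or 5 of L10 (0.91). With milk protein genes left out of the library totals it was at 0.62 (adjusted p = 0.017), while *Hk2* then passed at -1.46 (adjusted p = 0.0026) and the median of all genes was at -0.35. Markers of cells outside the epithelium also rose in basal lactation, with 5 of 5 pericyte markers, 6 of 6 endothelial markers and 3 of 3 adipocyte markers called higher (3 endothelial markers with milk protein genes left out of the totals). Only 2 of 7 fibroblast and 1 of 7 immune markers were called higher. With milk protein genes left out of the totals 0 fibroblast markers were higher and 1 was lower. Of 10 luminal markers 6 fell (7 in that setting). The lineage gate (Lin-) of the sort selected against markers that include CD31, CD45, CD11b and CD140a. The part of other cells in the basal values was not tested.

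The difference between the cell types in that change was tested in the same fit. It passed for 2 of 7 members, both higher in luminal cells, where 4.91% of all genes were called in that direction and 5.4% in the other. The luminal change exceeded the basal one by 2.91 (SE 0.54, adjusted p = 0.00013) for *Hk2* and by 1.20 (SE 0.29, adjusted p = 0.0023) for *B4galt1*. *Slc2a1*, at 1.39 (SE 0.44), did not pass (adjusted p = 0.023) and did with the sort as a block (1.40, adjusted p = 0.0096). It also passed without L3 luminal replicate 6 (1.6, adjusted p = 0.0084) and with the 3 basal Id2 libraries left out of the fit (adjusted p = 0.0051). With the spread estimated only from the groups compared, *Slc2a1* passed (adjusted p = 0.005) and *B4galt1* did not (1.20, adjusted p = 0.011). The *B4galt1* difference was also lost without L10 basal replicate 6 (1.03, adjusted p = 0.018), and that of *Hk2* was kept without any single library.

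The steps between neighbouring times were tested in luminal cells as well, and of the 4 members that rose in lactation *B4galt1* alone was called in a step leading to it. From W10 to P3.5 no member was called, where 1.82% of all genes were, and *Lalba* stood at -3.45 (SE 0.85, adjusted p = 0.011). With the sort block it passed (adjusted p = 0.0077), as it did without P3.5 luminal replicate 4 (-4.25, adjusted p = 0.0052). From P3.5 to P14.5, which were amplified together, *B4galt1* alone rose, by 1.52 (adjusted p = 0.00064), where 1.52% of genes changed. From P14.5 to L3, where 6.17% changed, *Lalba* rose by 4.61 (SE 0.85, adjusted p = 0.00025) and *B4galt1* by a further 1.27 (adjusted p = 0.0016), with *Hk2* at 1.87 (adjusted p = 0.013). The *Lalba* call held without any single library, whereas that of *B4galt1* was lost without P14.5 luminal replicate 5 (1.23, adjusted p = 0.011) or L3 luminal replicate 4 (1.03, adjusted p = 0.023). The *B4galt1* call was also lost with milk protein genes left out of the totals (0.99, adjusted p = 0.012) and with only the groups compared in the fit (1.27, 0.074). *Hk2* passed with median-ratio scaling (1.97, adjusted p = 0.0093) and with the basal Id2 libraries left out (adjusted p = 0.0019). From L3 to L10, again within 1 amplification batch, no member was called, where 0.381% of genes were, and *Lalba* was at -1.45 (adjusted p = 0.43). Replicates 4 of L3 and L10 were sorted on the same day, as were replicates 5, which the fit did not use. In both pairs luminal *Lalba* (479 and 50.6 CPM, 319 and 179 CPM) and *B4galt1* (2249 and 631 CPM, 1037 and 993 CPM) were lower at L10, a description of 2 pairs.

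After weaning, *Ugp2* rose from L10 to Id2 by 1.27 (SE 0.28, adjusted p = 0.0026), the only one of 7 members called where 4.56% of genes were. *Lalba* was at 2.93 (adjusted p = 0.019) in that step. The *Ugp2* call was lost without L10 luminal replicate 4 (1.07, adjusted p = 0.025) or Id2 luminal replicate 4 (1.21, 0.016) or 6 (1.20, 0.016). It was also lost with milk protein genes left out of the totals (0.99, adjusted p = 0.013) and with only the groups compared in the fit (1.27, 0.067). Against W10, amplified in the same batch as Id2, 4 of 7 members were higher at Id2 (6.23% of genes were called higher). These were *Lalba* by 3.67 (adjusted p = 0.0017), *Ugp2* by 1.71 (adjusted p = 2.8e-05), *B4galt1* by 1.66 (adjusted p = 3.4e-05) and *Slc2a1* by 1.64 (adjusted p = 0.0056). The *Lalba* call was lost without W10 luminal replicate 5 (3.14, adjusted p = 0.019) or Id2 luminal replicate 2 (3.17, 0.018) or 4 (3.47, 0.011). That of *Slc2a1* was lost without W10 luminal replicate 3 (1.42, adjusted p = 0.038) or 6 (1.65, 0.016) or Id2 luminal replicate 2 (1.54, 0.026), 4 (1.65, 0.018) or 6 (1.72, 0.013), and with milk protein genes left out of the totals (1.15, 0.03). In the same luminal comparison 6 of 7 immune markers and 3 of 7 fibroblast markers were higher, with summed immune markers of 44.5 to 222 CPM at Id2 and 9.46 to 17.8 CPM at W10. Summed fibroblast markers were at 224, 486 and 5210 CPM in Id2 replicates 2, 4 and 6 and at 120 to 405 CPM at W10. Replicate 6 also held the lowest luminal *Lalba* of Id2 (365 CPM). Adipocyte markers were at 45.8 to 117 CPM against 3.36 to 11.1 CPM, and basal markers at 1226 to 2076 CPM against 781 to 1000 CPM. The part of these cells in the member values was not tested.

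From Id2 to Iw4 the luminal levels of 3 of 7 members fell (10.5% of genes were called), *Slc2a1* by 1.87 (adjusted p = 0.0016), *B4galt1* by 1.65 (adjusted p = 3.7e-05) and *Ugp2* by 1.15 (adjusted p = 0.0030). *Lalba*, at -2.53 (adjusted p = 0.029), did not pass. With milk protein genes left out of the totals, which moved the median of all genes to 0.45, these were at -1.22 (adjusted p = 0.019), just under a 2-fold decrease (adjusted p = 0.0065) and -0.50 (adjusted p = 0.16), and none passed. The call of *Slc2a1* was lost without Iw4 luminal replicate 6 (-1.56, adjusted p = 0.020), and that of *Ugp2* without that library (-1.05, 0.019) or Id2 luminal replicate 4 (-1.09, 0.016) or 6 (-1.08, 0.017). Summed immune markers were at 44.5 to 222 CPM in luminal Id2 and 16.5 to 18 CPM in luminal Iw4. Adipocyte markers were at 45.8 to 117 and 4.9 to 12.6 CPM, and fibroblast markers at 224 to 5210 and 76.8 to 436 CPM. The part of these cells in the falls was not tested. Parous glands at Iw4 and age-matched M4 glands, whose libraries shared their amplification batches, were compared as well, and no member was called. No gene of the table was called in luminal cells by limma (392 had an unadjusted p under 0.05, and edgeR also called 0). In basal cells 1 gene was called, 0.00586% of all, and none was a member. From W10 to M4 no member was called in either cell type (0.972% of genes in luminal and 1.05% in basal cells).

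The steps were tested in basal cells in the same way. *B4galt1* rose from P3.5 to P14.5 by 1.42 (adjusted p = 0.0028; 3.64% of genes were called), a call lost without P3.5 basal replicate 2 (adjusted p = 0.011) or 6 (1.26, 0.020) or P14.5 basal replicate 5 (1.04, 0.11). Over the same step the summed fibroblast markers went from 347 to 787 CPM at P3.5 to 11820 and 5979 CPM at P14.5, and the pericyte markers from 51.7 to 118 CPM to 1224 and 1098 CPM. Endothelial markers were at 11.8 to 54.3 CPM and then at 729 and 307 CPM, and adipocyte markers at 1.34 to 14.4 CPM and then at 253 and 93 CPM. The summed milk protein genes of basal P14.5 replicates 3 and 5 stood at 3.64 and 31.8% of the luminal level of the same sort. *Krt18* stood at 5.86 and 24.4% and *Krt8* at 20 and 24.3%. The part of luminal RNA and of the other cells in the basal P14.5 values of *B4galt1* and *Hk2* was not tested. No member was called from W10 to P3.5 (6.76% of genes), from P14.5 to L3 (3.89%) or from L3 to L10 (1.14%). *Hk2* from P14.5 to L3, at -1.83 (adjusted p = 0.038), passed when the basal Id2 libraries were left out (adjusted p = 0.0080). From L10 to Id2 *Lalba* rose by 4.16 (adjusted p = 0.0013) and *Hk2* by 2.71 (adjusted p = 0.00075), where 13.3% of genes were called. The first was lost without L10 basal replicate 6 (3.58, adjusted p = 0.048) and the second without that library (2.33, 0.036) or Id2 basal replicate 6 (1.84, 0.013), and in the same step 11 of 12 basal markers fell, with a median of -5.17. Against W10, *Lalba* was higher at Id2 by 4.28 (adjusted p = 0.00017) and *B4galt1* by 2.17 (adjusted p = 1.3e-07), where 17.4% of genes were called, and both held without any single library. Without Id2 basal replicate 2, 5 members were called in this comparison, among them *Hk2* (1.88, adjusted p = 0.0051). From Id2 to Iw4 *B4galt1* fell by 2.23 (adjusted p = 1e-07; 17.4% of genes), and *Lalba* was at -2.66 (adjusted p = 0.015), which passed without Id2 basal replicate 6 (-3.58, 0.0024) or Iw4 basal replicate 3 (-3.34, 0.0072).

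Basal and luminal cells were compared next at each time point, as the means of their libraries rather than sort by sort. In each of the 22 sorts that gave both libraries, these 2 were amplified in the same batch, and at P14.5 and L10 3 luminal libraries were set against 2 basal ones. Averaged over the 8 time points, 2 of 7 members were called, both lower in basal cells, where 7.35% of genes were. *Lalba* was lower by a log2 of -3.63 (SE 0.31, adjusted p = 6.3e-13) and *B4galt1* by -1.88 (SE 0.10, adjusted p = 1.3e-18), and both held without any single library. Every member called at a single time point was lower in basal cells. At W10 and M4 these were *Lalba* (-4.19 and -3.29) and *B4galt1* (-1.62 and -1.72), where 5.12 and 4.24% of genes were called lower, and at Iw4 the same 2 members (-3.71 and -1.69, with 3.75%). During pregnancy only *B4galt1* was called, at -1.55 at P3.5 (4.64% of genes lower) and -1.64 at P14.5 (3.39%), with *Lalba* at -2.51 (adjusted p = 0.033) and -2.47 (adjusted p = 0.057). On log2(CPM + 1) the difference of *Lalba* at P3.5 is understated, since its basal level is far below 1 CPM, and with a pseudocount of 0.1 it was -4.20 (adjusted p = 0.00095).

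The gap between the cell types reached the most members in lactation. At L3, 4 of 7 members were lower in basal cells (9.87% of all genes were), with *Lalba* at -4.47, *B4galt1* at -3.57 (SE 0.28, adjusted p = 1.4e-12), *Hk2* at -2.65 (adjusted p = 8.7e-05) and *Slc2a1* at -1.91 (adjusted p = 0.00047). All 4 held without any single library, and that of *Slc2a1* was lost with the spread estimated only from the groups compared (adjusted p = 0.011). At L10, 5 of 7 were lower (10.9% of genes), with *Lalba* at -4.81, *Hk2* at -3.22 (adjusted p = 3.3e-05), *B4galt1* at -2.16, *Slc2a1* at -1.71 (adjusted p = 0.0047) and *Slc35a2* at -1.36 (adjusted p = 0.0034). *Hk1*, at -1.03 (adjusted p = 0.012), passed with the sort block (-1.01, adjusted p = 0.0068) and with milk protein genes left out of the totals (-1.40, 0.0007). It also passed without L10 basal replicate 5 (-1.49, adjusted p = 0.0037) and with the basal Id2 libraries left out (adjusted p = 0.0018). The *Slc2a1* call at L10 was lost without luminal replicate 5 (-1.66, adjusted p = 0.014) or 6 (-1.68, 0.014) or basal replicate 5 (-1.91, 0.014) or 6 (-1.51, 0.071), and that of *Slc35a2* without luminal replicate 5 (-1.24, 0.016) or 6 (-1.28, 0.014) or basal replicate 6 (-0.83, 0.19). At Id2, 3 of 7 were lower (9.39% of genes), with *Lalba* at -3.58 (adjusted p = 0.00099), *Slc2a1* at -2.49 (adjusted p = 1.9e-05) and *B4galt1* at -1.10 (adjusted p = 0.0018), against the basal Id2 libraries described above. Of these, *Lalba* was lost without luminal replicate 2 (-3.08, 0.013) or basal replicate 6 (-2.67, 0.021) and *B4galt1* without luminal replicate 2 (-0.97, 0.018) or basal replicate 4 (-1.03, 0.010), while 4 members were called without basal replicate 2. Single libraries also ended the call of *B4galt1* at P14.5 (basal replicate 3, -1.26, adjusted p = 0.031) and that of *Lalba* at Iw4 (luminal replicate 3, -3.31, 0.014, or basal replicate 6, -2.70, 0.036). At M4 that of *Lalba* was lost without basal replicate 1 (-2.76, 0.039) or 2 (-2.99, 0.026) or luminal replicate 2 (-3.38, 0.011) or 6 (-2.51, 0.057).

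**Figure D4:**
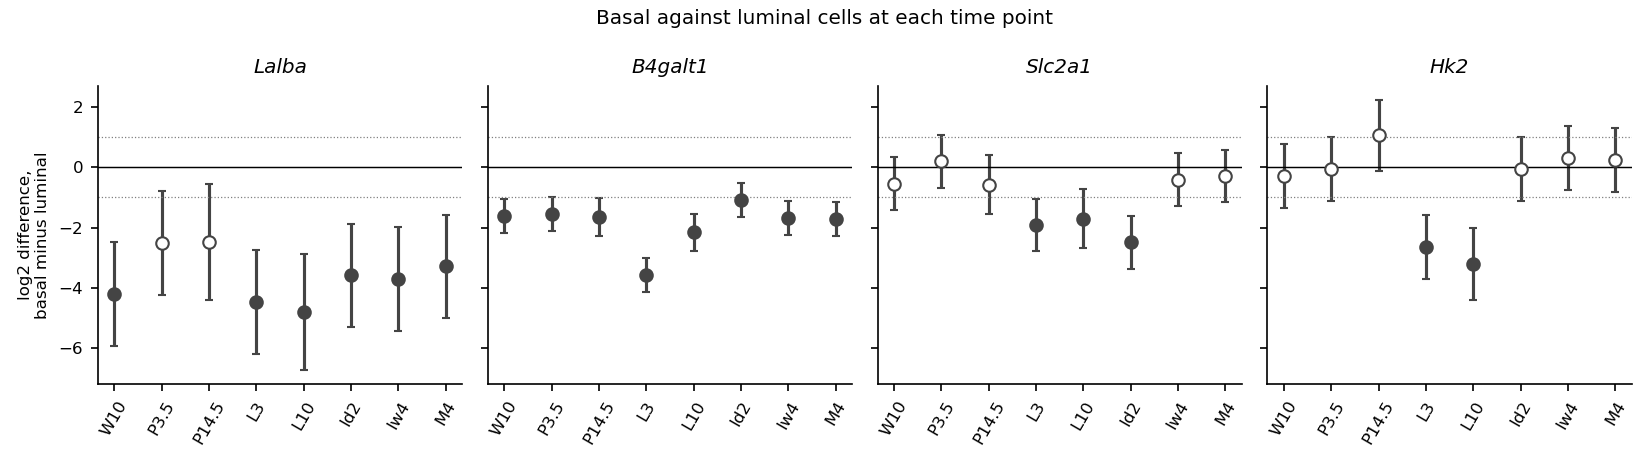
Log2 difference (basal minus luminal, with 95% intervals) of *Lalba*, *B4galt1*, *Slc2a1* and *Hk2* at the 8 time points; filled symbols passed the test and dotted lines mark 2-fold. *Lalba* and *B4galt1* lie below 0 throughout, and *Hk2* and *Slc2a1* fall to -2.65 and -1.91 at L3.

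*Lalba* was set against the β-casein gene *Csn2*, the most abundant milk protein gene, in the luminal libraries. *Csn2* rose from a mean of 4356 CPM at P3.5 to 80924 CPM at P14.5 and 463039 CPM at L3, while *Lalba* was at 8.84, 13.4 and 353 CPM on average at these times. *Lalba* gave 12.7, 18.1 and 17 reads per 1000 *Csn2* reads at W10, 0.456, 3.4 and 1.31 at P3.5 and 0.166, 0.192 and 0.137 at P14.5. The ratio was 0.936, 1.69 and 0.377 at L3 and 0.510, 0.806 and 0.803 at L10. All pregnant and lactating libraries lay below all those of the other times except for overlap between P3.5 (3.4) and Id2 (2.02). After weaning it was 8.47, 8.32 and 2.02 at Id2 and 9.11, 20 and 5.05 at Iw4, and at M4 it was 5.24, 5.3 and 10. The ratio within a library does not depend on how the library total was scaled.

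**Figure D5:**
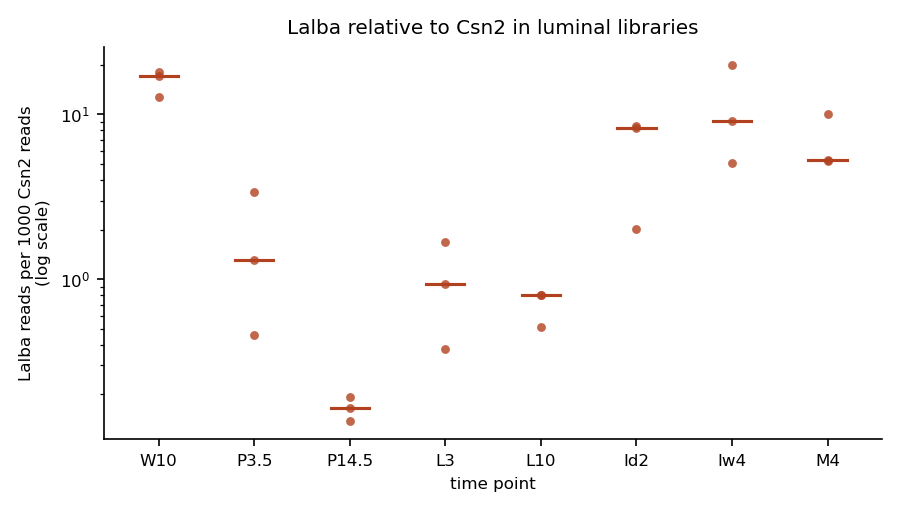
*Lalba* reads per 1000 *Csn2* reads (log scale) in the luminal libraries at the 8 time points; each point is 1 library and each bar the group median. The 3 libraries of P14.5 (0.137 to 0.192) lie lowest, and each library of W10, Iw4 and M4 lies above all of those of P3.5, P14.5, L3 and L10.

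The genes around the members were counted in the same lactation comparison, from lists chosen by role. Over all genes 7.37% were called higher and 5.83% lower in luminal cells, and 9.58% higher and 6.97% lower in basal cells. Among 13 glucose transporters 4 rose in luminal cells and none fell (median 0.50). Beside *Slc2a1* these were *Slc50a1*, the SWEET1 transporter (1.56, adjusted p = 1.6e-05, difference from basal cells passed), *Slc5a1*, the sodium-glucose cotransporter SGLT1 (1.17, adjusted p = 0.0079), and *Slc2a6* (1.07, adjusted p = 0.0010), which stayed below 4 CPM. The insulin-sensitive *Slc2a4* (GLUT4), known from fat and muscle, was at 103 and 119 CPM in basal and 3.07 and 3.41 CPM in luminal cells at L3 and L10. The same basal libraries held 480 to 931 CPM of adipocyte markers, led by *Fabp4*, and 1590 to 16089 CPM of pericyte markers, led by *Rgs5*. In basal W10, with 12.6 to 39.4 CPM of the first and 92.2 to 122 CPM of the second, *Slc2a4* was at 28.8 to 69.6 CPM. Its changes of 1.13 (luminal, adjusted p = 0.038) and 1.35 (basal, adjusted p = 0.018) did not pass. In basal cells no glucose transporter rose, and *Slc2a9*, the urate transporter GLUT9, fell (-1.20, adjusted p = 0.0068). Of 3 hexokinase list genes measured, *Hk2* rose in luminal cells, and *Adpgk*, which phosphorylates glucose with ADP, fell in basal cells (-1.02, adjusted p = 0.0044). In basal cells 0 of the 3 were called lower with median-ratio scaling and 2 with milk protein genes left out of the totals.

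Of 7 β-1,4-galactosyltransferases 3 rose in luminal cells, where 7.37% of all genes were called higher and 5.83% lower. *B4galt5*, a lactosylceramide synthase, rose by 2.50 (adjusted p = 2.7e-08) from 1.88 and 2.16 CPM at W10 and M4 to 20.8 and 14.7 CPM at L3 and L10, and *B4galt6* rose by 1.15 (adjusted p = 0.0020). *B4galt5* also rose in basal cells, by 2.58 (adjusted p = 2.4e-08). None of the 13 genes of UDP-glucose and UDP-galactose metabolism changed in luminal cells. This list holds *Ugp2*. *Pgm5*, a relative of phosphoglucomutase found in muscle-type cells, rose in basal cells by 2.30 (adjusted p = 0.00099). Of 13 nucleotide sugar transporters, *Slc35a2* and *Slc35c2* (1.02, adjusted p = 0.00069) rose in luminal cells, and 1 was called there with median-ratio scaling. In basal cells, where *Slc35c2* was at -1.05, 1 of the 13 was called lower, and 3 with milk protein genes left out of the totals. Over all genes 6.97% were called lower in basal cells. Of 10 genes of Golgi nucleotide and ion handling, *Tmem165* (1.11, adjusted p = 0.00029) and *Atp2c2* (2.55, adjusted p = 1.7e-05) rose in luminal cells. In basal cells 0 of these 10 were called lower, and 2 with milk protein genes left out of the totals. *Atp2c2*, the calcium and manganese pump SPCA2, was at 237 CPM at L3 and 335 CPM at Id2 against 28.7 CPM at W10.

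Downstream of the hexokinases, 4 of 16 glycolytic genes rose in luminal cells, *Pfkl* (1.46), *Ldha* (1.21), the lactate transporter gene *Slc16a1* (1.06) and *Aldoc* (1.05). In basal cells *Aldoa* rose (1.25) and *Slc16a1* fell (-1.83, adjusted p = 5.4e-08). Of 7 genes of the pentose phosphate pathway *Tkt* (1.63), *Taldo1* (1.32) and *Pgd* (1.09) rose in luminal cells, and *Pgd* fell in basal cells (-1.19, adjusted p = 0.0011). Of 10 genes of lactogenic signalling *Akt1* rose in luminal cells (1.18), and *Prlr*, the prolactin receptor, fell in basal cells (-2.55, adjusted p = 0.00097). Over all genes 7.37% were called higher in luminal and 6.97% lower in basal cells, and 1 of 10 genes is close to these shares. With milk protein genes left out of the totals the luminal counts called higher were 1 of 13 transporters, 2 of 7 galactosyltransferases, 0 of 13 nucleotide sugar transporters, 1 of 16 glycolytic, 1 of 7 pentose phosphate, 1 of 10 Golgi and 0 of 10 lactogenic signalling genes, with 2 of the last called lower. No glycolytic gene was then called higher in basal cells. Most of these counts thus depended on that scaling. It moved the median of all genes to -0.25 in luminal and -0.35 in basal lactation, which takes genes just over 2-fold higher below the threshold alike. Of the 2 measured relatives of *Lalba* in the lysozyme family, *Lyz2*, a macrophage gene, rose in luminal cells (1.95, adjusted p = 0.0027) to 26.6 CPM at L10.

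The genes most like each member over the 16 condition means, out of 10580 genes with a mean of at least 5 CPM, were listed as a description. For *Lalba* they were *Bmp3* (Pearson r = 0.97), *Wfdc3* and *Saa1* (0.95 each), and for *B4galt1* *Ccl9* (0.98), *Got1* (0.97) and *Ubtd1* (0.96). For *Slc2a1* they were *Tmem63b*, *Tmem144* and *Slc20a1* (0.91 each), for *Hk1* *Gak* (0.97), *Scly* and *Pla2g6* (0.96 each), and for *Hk2* *Tmem267*, *Sec22b* (0.90 each) and *Arfgap1* (0.88). For *Ugp2* they were *Gabarap* (0.91), *Orm2* and ENSMUSG00000079437 (0.89 each), and for *Slc35a2* *Sftpd*, *Olah* (0.93 each) and *Ocel1* (0.92). No casein was among them. The 16 means share their libraries' sorts and batches, and no test was attached to these values.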

How the data were processed

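RNA from luminal and basal cells was amplified by the authors (Ovation RNA-Seq System V2) and sequenced. Per the study's methods and the labels, reads were aligned with GSNAP to NCBI Build 37.1, counted per gene with htseq-count and scaled with edgeR, after the removal of genes below 1 CPM in 3 samples and of those that combined an extreme read number with little variability. The strand used in counting was not given in the sources used here. The deposited signal is CPM on the effective library size. In every library 100.0% of the values were whole multiples (within 0.05) of the CPM of 1 read, so reads could be recovered, and the totals in the report are their sums. The table held 17078 genes and 46 libraries of the 47 samples described (P14.5 basal replicate 2 was not analysed here), and 0 columns were left unused. Symbols were matched for 16897 gene identifiers, not for 181. Exon lengths came from GENCODE vM21. The members share at most 3% of their exon bases with other genes (*Slc2a1*, *Ugp2* and *Hk1*).

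limma 3.58.1 (R 4.3.3, trend) was fitted to log2(CPM + 1) of all genes with 1 mean for each of 16 conditions, so that all groups share 1 estimate of the spread. p-values were adjusted by the Benjamini-Hochberg method over 17078 genes, and genes with a change of 2-fold or more and an adjusted p under 0.01 were called. The pseudocount understates changes of genes near 1 CPM. Members, lists and tests were chosen with earlier results of these data known. Genes are named if they are members, if they belong to a list, or if they are the 3 most correlated with a member. Replicates are separate sorts of pooled mice. Luminal and basal libraries of a sort share its number in the labels, and their deviations from the condition means correlated over genes with a median of 0.25 (22 pairs, -0.00 to 0.39). A fit blocked on the sort (consensus correlation 0.179) is given where it changed a call. Amplification batches held W10 with Id2, P3.5 with P14.5, L3 with L10, and M4 with Iw4. Other comparisons cross batches, where batch and time cannot be told apart. Within the first 3 of these pairs the labels put the time points on different lanes, so lane and time cannot be told apart there. They put 18 libraries (L3, Iw4 and M4) on lane 7, where the protocol gives 6 samples per lane, so these lane labels are uncertain. Alternatives were a pseudocount of 0.1, median-ratio scaling, milk protein genes left out of library totals, a filter at a mean of 5 CPM, edgeR 4.0.16 on recovered reads, an FDR of 0.05, no minimum fold, only the groups compared in the fit, Iw4 among the never-pregnant times and each library left out. The setting without milk protein genes divided reads by plain totals, not by the effective library size. Leaving out the basal Id2 libraries or both W10 replicate 3 libraries was chosen after the data were seen. Among the genes that the lists lack are *Slc2a2*, *Slc5a11*, *Hk3*, *Hkdc1*, *Entpd4*, *Lyz1*, *Spaca3*, *Spaca5*, *Adipoq*, *Cfd* and *Cidec*, which were not analysed here. *Pgm3*, *Galt*, *B4galt2*, *Entpd4b*, *Nme2* and *Itgam* share over 25% of their exon bases with other genes and are uncertain. Promoter windows came from the RefSeq table of GRCm38.p6, which held all 7 members, and were searched with Python 3.11.15.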

Additional observations from a re-analysis of the deposited data

Results flagged for a closer look

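The lactation change differed between luminal and basal cells, by the test of the difference itself, for 16 genes, 2 of 7 members and 14 of 94 other pathway genes, where 4.91% of all genes were called higher and 5.4% lower. Marker genes are not among them: 4 of 12 basal and 2 of 10 luminal markers were called higher, 4 of 5 pericyte and 2 of 3 adipocyte markers lower, and 1 of 7 fibroblast markers each way. Each value is the luminal minus the basal log2 change, with its SE, from limma, and all had an adjusted p under 0.01. Among the members these were *Hk2*, at 2.91 (SE 0.54, luminal 1.89 and basal -1.02), and *B4galt1*, at 1.20 (SE 0.29, luminal 2.28 and basal 1.08). For *B4galt1* both cell types rose and the luminal rise was the larger.

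Among glucose transporters the difference was 1.81 for *Slc5a1* (SE 0.50, luminal 1.17 and basal -0.64), 1.75 for *Slc2a9* (SE 0.48) and 1.43 for *Slc50a1* (SE 0.38). Of these 3 calls 1 was left with median-ratio scaling and 1 with milk protein genes left out of the library totals. It was 1.81 for *B4galt6* (SE 0.42), 2.07 for the transporter *Slc35c2* (SE 0.33), and 2.86 for *Atp2c2* (SE 0.63) and 1.41 for *Tmem165* (SE 0.34), a pair of Golgi ion transporters.

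In glycolysis the difference was 2.88 for the lactate transporter *Slc16a1* (SE 0.31, luminal 1.06 and basal -1.83) and 1.83 for *Aldoc* (SE 0.45). In the pentose phosphate pathway it was 2.29 for *Pgd* (SE 0.39), 1.18 for *Tkt* (SE 0.23) and 1.15 for *Taldo1* (SE 0.28). The difference had the opposite sign for *Pgm5*, at -2.78 (SE 0.74, basal 2.30), and *Pfkp*, at -1.26 (SE 0.32, basal 0.69), and neither was called with milk protein genes left out of the totals. No cause of these differences was tested.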

How the results depend on the processing

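The member values followed here were those of the lactation comparisons and, of all other comparisons, those of at least 2-fold. Of these 82 member values, 46 were calls. Since the fold is part of the rule for a call, this is not the share of calls among all member tests. None of the 46 changed direction under any alternative, and 19 of them were called under every planned one. Leaving milk protein genes out of the library totals reduced the number of members called from 4 to 2 in luminal lactation, from 2 to 1 in luminal L3 against P14.5, from 1 to 0 in luminal Id2 against L10 and from 3 to 0 in luminal Iw4 against Id2. In the same setting the uncalled basal lactation values of *Lalba*, *Ugp2* and *Slc35a2* turned to -0.14, -0.22 and -0.14, with the median of all genes at -0.35. Relative to that shift they stood at 0.21, 0.13 and 0.21. The milk protein genes take up to 65.6% of the reads of a luminal library and up to 5.7% of those of a basal one. This setting also replaced the effective library size by plain read totals. The part of each in the shift of all genes was not tested.

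With the spread estimated only from the groups compared, which leaves fewer samples, 1 member was called in luminal L3 against P14.5 (*Lalba*), 0 in luminal Id2 against L10, 1 in luminal Id2 against W10 (*B4galt1*), 0 in basal P14.5 against P3.5, 0 in basal Id2 against L10 and 1 in basal Id2 against W10 (*B4galt1*). Between the cell types it was 1 at L10 (*Hk2*), 0 at Id2, 1 at Iw4 and 1 at M4 (*B4galt1* at both). In this setting limma called 0 genes of the whole table in luminal Id2 against L10, 0 in basal Id2 against L10 and 6 in luminal L3 against P14.5. The counts of 0 members in luminal and basal Id2 against L10 therefore say nothing about the members. In basal P14.5 against P3.5 it called 103 genes, and between the cell types at Id2 327, so the member calls were lost there while other genes passed. With an adjusted p under 0.05 the counts were 2 in basal lactation, 1 in luminal P3.5 against W10, 2 in luminal Id2 against L10, 1 in basal L3 against P14.5, 2 in basal Iw4 against Id2 and 2 between the cell types at P3.5, and 2 luminal and 1 basal pairs of neighbours in the order of means were told apart.

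*Lalba* alone made the count 1 in luminal P3.5 against W10 with the filter at a mean of 5 CPM, with the sort block and with the 3 basal Id2 libraries left out. That last setting, chosen after the data were seen, also gave 1 in basal L3 against P14.5 (*Hk2*) and moved no other count by over 1.5 times. Leaving out both W10 replicate 3 libraries, also chosen after the data were seen, ended the calls of *Slc2a1* in luminal lactation (0.98) and luminal Id2 against W10 (1.42) and gave one for *Hk2* in basal Id2 against W10 (1.66). The sort block moved no other member count by over 1.5 times. Between the cell types at P3.5 the count was 2 with a pseudocount of 0.1 and 2 with edgeR. With no minimum fold change all 7 members differed between the cell types over all time points. With Iw4 among the never-pregnant times *Lalba* stood at -0.04 in basal lactation and the *Hk1* difference between the cell types at -0.01. Of the 21 genes most like the members, 4 stayed among the 3 most like with Spearman's measure and 5 over the 46 libraries.

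With each library left out in turn, the members called ranged from 2 to 4 in luminal lactation, 0 to 1 in basal lactation and 1 to 3 for their difference. In luminal cells they ranged from 0 to 1 for P3.5 against W10, 1 to 2 for L3 against P14.5, 0 to 1 for Id2 against L10, 1 to 3 for Iw4 against Id2 and 2 to 3 for Id2 against W10. In basal cells they ranged from 0 to 1 for P14.5 against P3.5, 0 to 3 for Id2 against L10, 1 to 3 for Iw4 against Id2 and 2 to 5 for Id2 against W10. Between the cell types they ranged from 0 to 1 at P14.5, 3 to 5 at L10, 1 to 4 at Id2, 1 to 2 at Iw4 and 1 to 2 at M4, and 0 to 1 pairs of neighbours were told apart in each cell type. Uncalled values changed sign for *Lalba* in basal lactation (-0.04 to 0.65) and for the lactation difference of *Hk1* (-0.17 to 0.28) and *Ugp2* (-0.04 to 0.31). The causes of these changes were not tested. Depth limits basal *Lalba* at P3.5 and the genes below about 1 CPM.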
